A study of Homo sapiens with 18 samples.

Results

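Amino acids reach the cytosol through membrane carriers of the SLC families, and 10 of them, which carry glutamine, leucine, cystine, arginine and small neutral amino acids, are described here. They are SLC3A2, SLC7A5, SLC7A6, SLC7A11, SLC1A5, SLC1A4, SLC38A1, SLC38A2, SLC7A1 and SLC43A1. Genes were chosen by symbol, and where a symbol had several entries the one used was selected on its highest mean FPKM over the 18 libraries, a value that ignores treatment. Of the 10 genes, 9 had a locus of their own among 26004 named loci, and all 9 passed the filter on low values. SLC43A1 stood only in a locus merged with TIMM10.

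SLC3A2, the CD98 heavy chain, is a glycoprotein that carries SLC7 light chains to the cell surface, and the light chain does the transport. In lymphocytes these carriers are known to increase when cells are activated, and they bring in leucine, which is sensed by mTORC1, and cystine, which feeds glutathione. Several of their genes are known targets of ATF4, the transcription factor of the amino acid response, and of NFE2L2, the factor of the oxidative stress response.

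Messenger RNA was sequenced from SUDHL6, SUDHL4 and Farage cells, established human cultures of a diffuse large B cell lymphoma that the labels class as germinal centre type. Each line received a BCL6 inhibitor or DMSO, the solvent control, with 3 libraries in each of the 6 groups. BCL6 is the repressor that holds germinal centre B cells in their state, and the comparison asks what its inhibition does to transcripts. The sample titles state 12 h of treatment whereas the source names state 24 h, and neither the compound nor its dose is stated in the labels. All cells were grown in RPMI1640 with fetal serum, no altered genotype is given, and nothing says that the replicates were separate cultures, so each p-value measures the spread between samples, which may be technical.

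Values are FPKM, fragments scaled to transcript length and to mapped fragments in the library, so levels of different genes can be set side by side. FPKM sums ran from 1130063 to 1548453 per library, of which small RNA loci held 21.97 to 50.3%. Read counts were not used here, and absolute depth is unknown. Depth relative to the median could be read in 16 libraries, from 0.775 to 0.821 under the inhibitor against 1.03 to 1.04 in DMSO for SUDHL6, 0.691 to 0.861 against 0.998 to 1.15 for SUDHL4, and 0.869 to 1.00 against 1.01 to 1.11 for Farage. Both SUDHL6 replicate 3 libraries stood apart from the rest of their groups, with Pearson's r across genes of 0.880 to 0.909 against 0.947 and 0.962 between replicates 1 and 2. The summed level of 5 B cell markers was 343 to 495 FPKM under the inhibitor and 816 to 920.2 FPKM in DMSO in SUDHL6, 786 to 842 and 1171 to 1238 FPKM in SUDHL4, and 339.8 to 353 and 651 to 672 FPKM in Farage. All 5 were above 1 FPKM in every library, apart from MME in Farage, which was at 0.912 to 1.01 FPKM under the inhibitor. T and NK cell markers summed to at most 8.91 FPKM in any library and monocyte markers to at most 3.50 FPKM. CD2, CD3E, CD163 and FCGR3A were at 0 in some or all groups. In SUDHL4 DMSO, however, CD247 was at 6.91 to 7.54 FPKM and CD3E at 1.03 to 1.13 FPKM. CD14 was at 0.826 to 1.42 FPKM under the inhibitor over the lines and at most 0.252 FPKM in DMSO. Stromal markers reached 16.3 to 17.6 FPKM under the inhibitor and 52.1 to 56.1 FPKM in DMSO in SUDHL4, and at most 2.71 FPKM in the other lines. BCL6 transcripts, the target's own, averaged 71.7 FPKM under the inhibitor and 82.2 FPKM in DMSO in SUDHL6, 72.3 and 131 FPKM in SUDHL4, and 61.9 and 53.8 FPKM in Farage. The part of depth and of these markers in the transporter differences was not tested. In bulk samples, fewer cells of a type and less RNA per cell cannot be told apart.

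Of the 9 measured transporters, 7 rose under the inhibitor in all 3 lines, 1 fell in all 3 and 1 moved in opposite directions between lines. SLC7A11, SLC3A2, SLC38A2, SLC7A5, SLC38A1, SLC7A1 and SLC1A5 rose, SLC7A6 fell, and SLC1A4 fell in SUDHL6 and rose in SUDHL4. Summed over the 9 genes, transporter transcripts came to 857 ± 122 FPKM under the inhibitor and 328 ± 30.7 FPKM in DMSO in SUDHL6, 840.5 ± 32.3 and 272 ± 38.8 FPKM in SUDHL4, and 1339 ± 31.1 and 318 ± 8.03 FPKM in Farage (SD, n = 3 each).

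Calls were made with limma on log2(FPKM + 1) at a Benjamini-Hochberg adjusted p under 0.05 over 12201 genes, and fold changes on that scale understate changes of low genes. In SUDHL6 7 of the 9 were higher and 2 lower, where 30.2% of all tested genes were higher and 33.7% lower. In SUDHL4 8 were higher and 1 lower, beside 29.6 and 37.1% of all genes, and in Farage 7 were higher and 1 lower, beside 29.2 and 38%. Over all tested genes 18.3% were called higher in all 3 lines and 21.2% lower. The median log2 fold change of the 9 was 0.94 in SUDHL6, 1.32 in SUDHL4 and 1.53 in Farage, beside -0.01, -0.04 and -0.07 for all tested genes. The list was drawn up with results of these data known, so these counts are a description. All inhibitor libraries lay above all DMSO libraries for 7 members in SUDHL6, 8 in SUDHL4 and 8 in Farage, where 27.7, 35.7 and 35.6% of all tested genes did so. SLC7A6 was the only member with all inhibitor libraries below DMSO, in each line, as were 30.4, 42.3 and 44.8% of all genes. Over all 3 lines at once 7 members were wholly above and 1 wholly below DMSO, beside 19.6 and 22.7% of all tested genes.

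**Figure D1:**
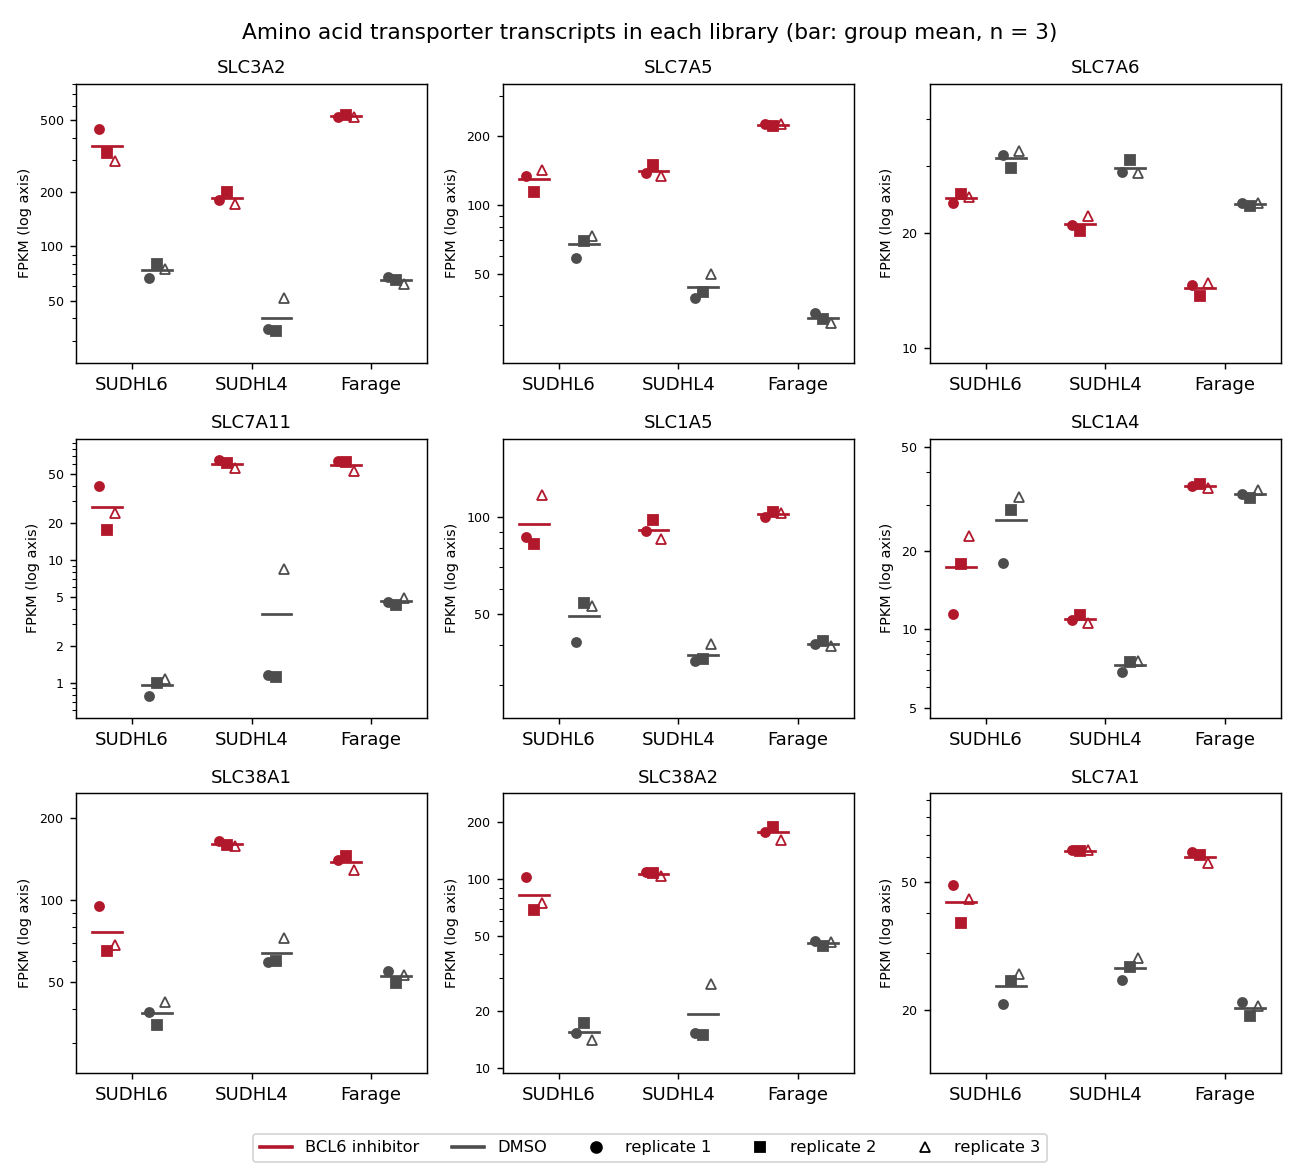
FPKM of the 9 measured transporters on a log axis in each library, with the inhibitor (red) left of DMSO (grey) for each line, replicates 1 to 3 by symbol and group means (n = 3) as bars. For SLC3A2, SLC7A5, SLC7A11, SLC1A5, SLC38A1, SLC38A2 and SLC7A1 every red point lies above every grey point of its line, and for SLC7A6 every red point lies below.

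SLC3A2, the heavy chain that SLC7A5, SLC7A6 and SLC7A11 need to reach the cell surface, was the most abundant transporter transcript under the inhibitor in each line. Its locus lies on chromosome 11 from 62618585 to 62656475 of hg19. SLC3A2 stood in SUDHL6 at 451, 330.4 and 297 FPKM under the inhibitor, against 67.02, 79.9 and 75.2 FPKM in DMSO. SUDHL4 libraries held 181, 200.3 and 173 FPKM under the inhibitor, against 34.7, 33.8 and 51.7 FPKM in DMSO. Farage held 522, 534 and 524 FPKM under the inhibitor, against 67.9, 65.2 and 62.0 FPKM in DMSO. All 3 inhibitor libraries were several-fold above all 3 DMSO libraries of the same line, and inhibitor replicates were closest to each other in Farage. The means were 359 ± 80.9 FPKM and 74.0 ± 6.51 FPKM in SUDHL6, a log2 fold change of 2.25 (SE 0.16, limma adjusted p = 4.16e-08). SLC3A2 rose by 2.20 in SUDHL4 (adjusted p = 2.45e-08) and by 3.00 in Farage (adjusted p = 1.29e-09). SNHG1, a host gene of small nucleolar RNAs that overlaps this locus, ran from 375 to 2493 FPKM in SUDHL6 inhibitor libraries and from 786 to 1615 FPKM in SUDHL6 DMSO libraries, and the counting is not stated to use strand.

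The promoter window of SLC3A2 that holds matches, chr11:62881449-62881748 on the plus strand, is shown because this gene had the highest transporter level under the inhibitor. Windows are RefSeq's, build GRCh38.p14, 250 bases before to 50 after a gene start, and capitals mark every match to TGATGNAA, the core of the C/EBP-ATF response element, TGACNNNGC, the core of the antioxidant response element, or CACGTG, the E-box, on either strand.
SLC3A2: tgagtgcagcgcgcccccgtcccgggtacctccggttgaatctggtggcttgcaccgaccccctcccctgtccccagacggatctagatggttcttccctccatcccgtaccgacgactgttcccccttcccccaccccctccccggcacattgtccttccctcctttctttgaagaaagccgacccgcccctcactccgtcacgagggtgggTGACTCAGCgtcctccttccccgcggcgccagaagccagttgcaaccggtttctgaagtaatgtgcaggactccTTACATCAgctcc
The first capitals are TGACTCAGC, a TGACNNNGC match at bases -37 to -29 from the start, and the second are TTACATCA, a TGATGNAA match on the minus strand at bases 38 to 45. The other 2 windows of SLC3A2 held no match.

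SLC7A5, known as LAT1, exchanges internal glutamine for leucine and other large neutral amino acids. On the log2(FPKM + 1) scale it had the widest spread of responses over the lines among the 9. It lies on chromosome 16 from 87863509 to 87903100 of hg19. SLC7A5 was in SUDHL6 at 134, 114 and 142 FPKM under the inhibitor, against 58.8, 69.5 and 73.5 FPKM in DMSO. The SUDHL4 values were 139, 149.9 and 134 FPKM under the inhibitor, against 39.3, 41.8 and 50.1 FPKM in DMSO. Farage libraries held 227, 221 and 227 FPKM under the inhibitor, against 33.7, 31.7 and 30.5 FPKM in DMSO. The groups did not overlap in any line. DMSO libraries were highest in SUDHL6, and under the inhibitor Farage was highest. Farage was lowest in DMSO as deposited, but not with scaling to the sum without small RNA loci, where its log2 difference from SUDHL4 was 0.0502. SLC7A5 means under the inhibitor were 1.94 times the DMSO mean in SUDHL6, 3.22 times in SUDHL4 and 7.03 times in Farage. On the log2 scale these were 0.94, 1.67 and 2.78 (SE 0.10 each, limma adjusted p = 1.67e-06, 6.81e-09 and 4.18e-11). The partial copies SLC7A5P1 and SLC7A5P2, the second merged with SMG1P3, stayed at or under 2.60 FPKM in every library, and reads shared with them cannot be told apart.

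The SLC7A5 window, chr16:87869458-87869757 on the minus strand, is shown for the gene whose response varied most, and reads 5′ to 3′ along the gene.
SLC7A5: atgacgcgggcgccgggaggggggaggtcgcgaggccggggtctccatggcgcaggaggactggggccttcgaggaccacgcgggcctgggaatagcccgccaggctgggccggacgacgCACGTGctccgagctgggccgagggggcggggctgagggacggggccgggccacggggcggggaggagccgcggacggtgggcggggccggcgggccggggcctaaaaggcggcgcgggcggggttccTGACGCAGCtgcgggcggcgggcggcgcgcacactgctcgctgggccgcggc
Its capitals are an E-box at bases -130 to -125 from the start and TGACGCAGC, a TGACNNNGC match that spans the start.

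SLC7A11, or xCT, imports cystine in exchange for glutamate and is the route to cysteine for glutathione. Its entry on chromosome 4, from 138948577 to 139163610 of hg19, was the lowest of the 9 in DMSO in each line and the 7th of 9 under the inhibitor. SLC7A11 stood in SUDHL6 at 40.2, 17.5 and 23.9 FPKM under the inhibitor, against 0.775, 0.995 and 1.08 FPKM in DMSO. Its SUDHL4 level was 65.0, 61.5 and 55.6 FPKM under the inhibitor, against 1.17, 1.12 and 8.50 FPKM in DMSO. Farage held 64.1, 62.4 and 52.9 FPKM under the inhibitor, against 4.53, 4.31 and 4.93 FPKM in DMSO. Every inhibitor library was well above its DMSO libraries, and within SUDHL4 DMSO, replicate 3 was the highest by several-fold. Means were 28.6, 16.9 and 13.03 times the DMSO means under the inhibitor in SUDHL6, SUDHL4 and Farage. On the log2(FPKM + 1) scale SLC7A11 rose by 3.78, 4.13 and 3.44 (SE 0.43 each, limma adjusted p = 3.02e-06, 9.74e-07 and 6.41e-06). Without SUDHL4 DMSO replicate 3 the SUDHL4 ratio of means was 53.2, above that of SUDHL6, and the log2 value was 4.85. With pseudocounts of 5 and 0.1 in place of 1 the SUDHL6 value was 2.37 and 4.63.

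The same span holds SLC7A11-AS1, an antisense RNA, and a second SLC7A11 entry, both much lower. SLC7A11-AS1 averaged 1.35 FPKM under the inhibitor and 0.134 FPKM in DMSO in SUDHL6, 4.51 and 0.270 FPKM in SUDHL4, and 5.34 and 0.231 FPKM in Farage. The second entry, which was not used, averaged 1.62 and 0.0228 FPKM, 6.82 and 0.354 FPKM, and 6.61 and 0.197 FPKM in the same order. Without SUDHL4 DMSO replicate 3 the SUDHL4 DMSO means were 0.0826 FPKM for SLC7A11-AS1 and 0.0708 FPKM for the second entry. Without strand, reads of the gene and of its antisense partner cannot be told apart.

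SLC7A6, or y+LAT2, exchanges arginine and other cationic amino acids for neutral ones together with sodium, and it was the member that fell. It lies on chromosome 16 from 68298419 to 68344868 of hg19. SLC7A6 was in SUDHL6 at 24.1, 25.4 and 25.0 FPKM under the inhibitor, against 32.2, 29.7 and 33.0 FPKM in DMSO. In SUDHL4 it was at 21.1, 20.3 and 22.2 FPKM under the inhibitor, against 28.9, 31.2 and 28.8 FPKM in DMSO. In Farage the values were 14.6, 13.7 and 14.8 FPKM under the inhibitor, against 24.0, 23.6 and 24.0 FPKM in DMSO. Inhibitor libraries lay below DMSO libraries in every line, with the widest gap in Farage. SLC7A6 fell by 0.34, 0.47 and 0.69 on the log2 scale in SUDHL6, SUDHL4 and Farage (SE 0.05 each, limma adjusted p = 6.8e-05, 2.59e-06 and 5.36e-08). SLC7A6OS, which overlaps the locus, averaged 27.1 against 29.0 FPKM, 27.2 against 26.7 FPKM and 20.3 against 22.4 FPKM, inhibitor against DMSO, in these lines. The 2 lower SLC7A6 entries stayed at or under 1.41 FPKM in every library.

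The SLC7A6 window, chr16:68264276-68264575 on the plus strand, is shown for the member that fell, beside those of genes that rose.
SLC7A6: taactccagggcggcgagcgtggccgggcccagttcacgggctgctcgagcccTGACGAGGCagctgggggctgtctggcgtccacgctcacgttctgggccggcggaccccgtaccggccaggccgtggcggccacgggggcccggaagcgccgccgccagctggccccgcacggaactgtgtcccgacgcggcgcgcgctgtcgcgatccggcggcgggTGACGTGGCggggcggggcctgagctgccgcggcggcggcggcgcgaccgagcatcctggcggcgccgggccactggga
Both runs of capitals are TGACNNNGC matches, TGACGAGGC at bases -197 to -189 and TGACGTGGC at bases -29 to -21 from the start. A match is a description of letters, not a binding site.

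Because SLC3A2 rose more than the sum of its light chains, the ratio of heavy chain to light chain transcripts was higher under the inhibitor in every line. The light chains summed were SLC7A5, SLC7A6, SLC7A11, SLC7A7, SLC7A8 and SLC7A10, each from its own locus. The ratio was 2.26, 2.05 and 1.54 in SUDHL6 inhibitor libraries, against 0.669, 0.723 and 0.652 in DMSO. In SUDHL4 it was 0.781, 0.835 and 0.785, against 0.433, 0.401 and 0.532. Farage had 1.70, 1.78 and 1.77, against 0.957, 0.956 and 0.922. The groups did not overlap in any line, and the ratio stayed under 1 in SUDHL4 in both groups.

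The makeup of the light chain pool also differed. SLC7A6 made up 13.6 ± 1.94% of summed light chain FPKM under the inhibitor and 29.2 ± 2.65% in DMSO in SUDHL6, 9.21 ± 0.819 and 34.3 ± 4.06% in SUDHL4, and 4.77 ± 0.210 and 34.7 ± 0.937% in Farage (SD, n = 3 each). SLC7A11 made up 14.5 ± 4.98 and 0.870 ± 0.0859%, 26.3 ± 1.49 and 3.84 ± 4.25%, and 19.8 ± 1.72 and 6.68 ± 0.568% in the same lines. Without SUDHL4 DMSO replicate 3 the SLC7A11 share in SUDHL4 DMSO was 1.39%. SLC7A5 was the largest share in every library, at 70.6 ± 3.29 and 61.8 ± 2.72%, 61.1 ± 1.40 and 50.1 ± 1.24%, and 74.5 ± 1.60 and 46.4 ± 1.05%. These are shares of transcripts per length, with no test, and protein was not measured.

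**Figure D2:**
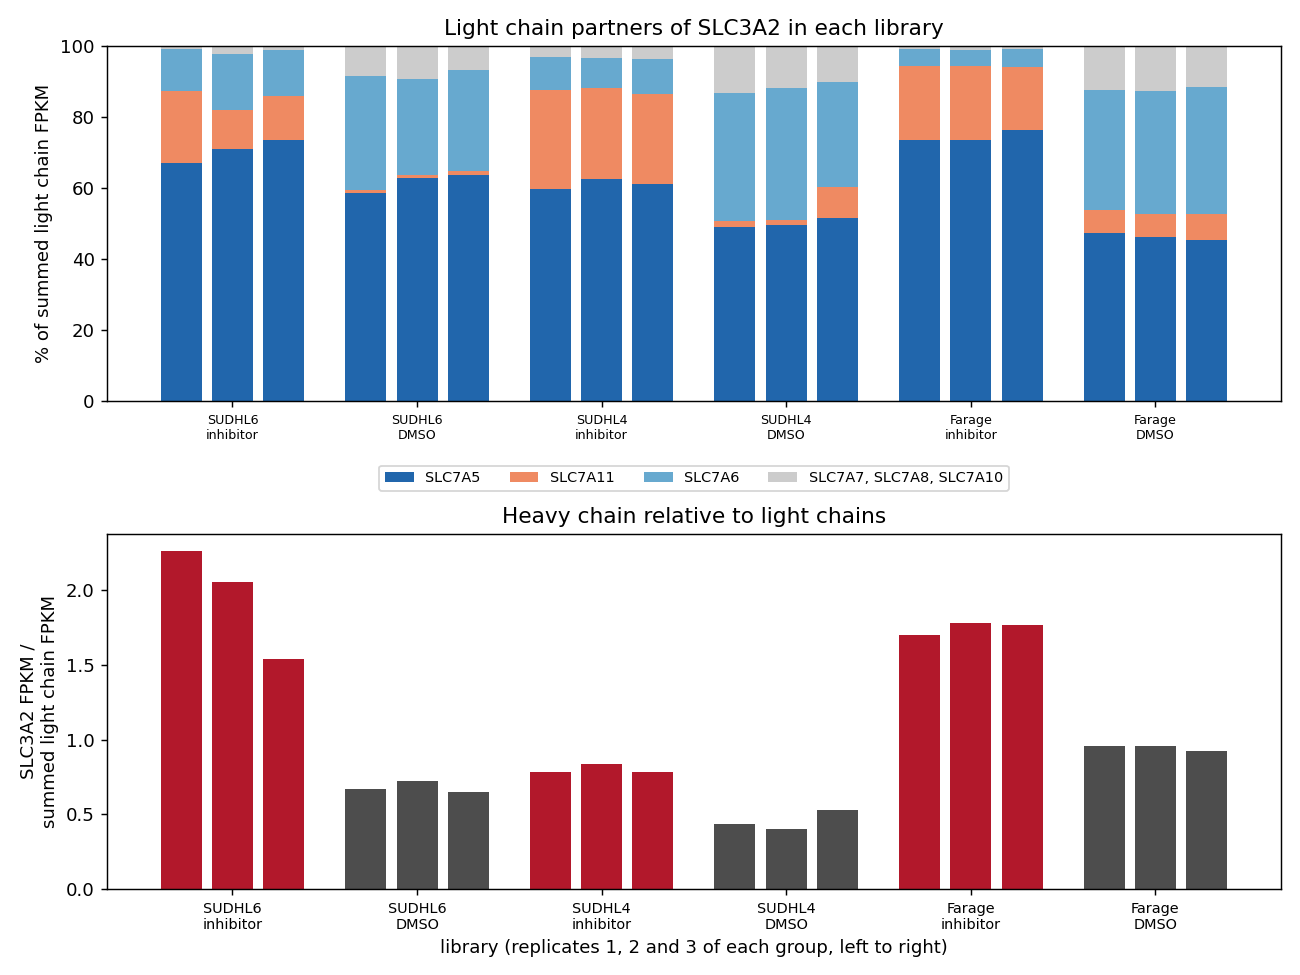
Upper panel, the share of each light chain in summed light chain FPKM, in %, for each library; lower panel, SLC3A2 FPKM over that sum, inhibitor libraries in red and DMSO libraries in grey. SLC7A11 takes at least 10.9% under the inhibitor, and the heavy to light chain ratio is higher under the inhibitor in each line.

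SLC1A5, or ASCT2, is a sodium-dependent exchanger that brings in glutamine, and it rose to nearly the same level in all 3 lines. SLC1A5 was in SUDHL6 at 86.5, 82.6 and 117 FPKM under the inhibitor, against 40.9, 54.1 and 52.8 FPKM in DMSO. SUDHL4 libraries held 90.6, 98.1 and 85.8 FPKM under the inhibitor, against 35.6, 36.1 and 40.4 FPKM in DMSO. Farage libraries held 100.3, 104 and 103 FPKM under the inhibitor, against 40.3, 41.2 and 39.9 FPKM in DMSO. Inhibitor libraries lay above DMSO libraries in each line, and SUDHL6 inhibitor libraries overlapped those of both other lines. The log2 fold changes were 0.93, 1.27 and 1.32 in SUDHL6, SUDHL4 and Farage (SE 0.12 each, limma adjusted p = 1.01e-05, 3.81e-07 and 2.78e-07).

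SLC1A4, or ASCT1, the close relative that exchanges alanine, serine, cysteine and threonine, did not follow SLC1A5. SLC1A4 was in SUDHL6 at 11.4, 17.9 and 22.9 FPKM under the inhibitor, against 17.9, 28.8 and 32.2 FPKM in DMSO. The SUDHL4 values were 10.8, 11.3 and 10.5 FPKM under the inhibitor, against 6.84, 7.45 and 7.57 FPKM in DMSO. In Farage the values were 35.5, 36.0 and 34.96 FPKM under the inhibitor, against 33.2, 31.9 and 34.2 FPKM in DMSO. The groups overlapped in SUDHL6, and in SUDHL4 and Farage the inhibitor libraries lay just above DMSO. In SUDHL6 the replicate 3 libraries deviated together across genes, whereas such correlations did not set the pairs of replicates 1 and 2 apart. Within libraries of the same number SLC1A4 was lower under the inhibitor each time, at 0.635, 0.620 and 0.709 of its DMSO value. SLC1A4 fell by 0.58 on the log2 scale in SUDHL6 (SE 0.20, limma adjusted p = 0.0218), rose by 0.52 in SUDHL4 (adjusted p = 0.0354) and was at 0.10 in Farage (95% interval -0.34 to 0.54, adjusted p = 0.703). The SUDHL6 call was lost without inhibitor replicate 1 (-0.32, adjusted p = 0.124), DMSO replicate 2 (-0.50, adjusted p = 0.078) or DMSO replicate 3 (-0.42, adjusted p = 0.105) in this unpaired fit, whereas with the replicate number as a block the SUDHL6 adjusted p was 4.13e-05. The SUDHL4 call was lost without any 1 of the 6 SUDHL4 libraries, with limma adjusted p from 0.0581 to 0.0928. SLC1A5 was 7.60, 4.62 and 5.13 times SLC1A4 in SUDHL6 inhibitor libraries, against 2.28, 1.88 and 1.64 times in DMSO. The ratio averaged 8.39 ± 0.280 under the inhibitor and 5.13 ± 0.250 in DMSO in SUDHL4, and 2.89 ± 0.0630 and 1.22 ± 0.0627 in Farage (SD, n = 3 each), so it was higher under the inhibitor in all 3 lines.

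SLC38A2, or SNAT2, a sodium-coupled carrier of small neutral amino acids known for its adaptation to amino acid supply, rose several-fold in each line. SLC38A2 was in SUDHL6 at 103, 68.9 and 75.1 FPKM under the inhibitor, against 15.3, 17.3 and 14.2 FPKM in DMSO. Its SUDHL4 level was 109, 108 and 104 FPKM under the inhibitor, against 15.4, 14.9 and 27.9 FPKM in DMSO. Farage libraries held 179, 190.0 and 162 FPKM under the inhibitor, against 46.9, 44.1 and 46.3 FPKM in DMSO. The groups did not overlap, and replicate 3 was again the highest within SUDHL4 DMSO. The log2 fold changes were 2.31, 2.46 and 1.93 (SE 0.19 each, limma adjusted p = 1.42e-07, 4.94e-08 and 5.32e-07).

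SLC38A1, or SNAT1, carries glutamine by the same mechanism and rose less than SLC38A2. SLC38A1 was in SUDHL6 at 95.3, 65.4 and 68.4 FPKM under the inhibitor, against 38.9, 34.97 and 42.5 FPKM in DMSO. In SUDHL4 it was at 164, 159 and 159 FPKM under the inhibitor, against 59.4, 59.8 and 72.7 FPKM in DMSO. In Farage the values were 141, 146 and 129.7 FPKM under the inhibitor, against 54.9, 49.7 and 53.4 FPKM in DMSO. Again no inhibitor library reached down to the DMSO libraries of its line. The log2 fold changes were 0.94, 1.32 and 1.38 (SE 0.12 each, limma adjusted p = 9.91e-06, 2.76e-07 and 1.93e-07). The ratio of SLC38A1 to SLC38A2 was 0.928 ± 0.0190 under the inhibitor and 2.52 ± 0.493 in DMSO in SUDHL6, 1.503 ± 0.0273 and 3.49 ± 0.770 in SUDHL4, and 0.785 ± 0.0161 and 1.15 ± 0.0215 in Farage (SD, n = 3 each). By mean ratio SLC38A1 was the higher of the pair in every DMSO group, and under the inhibitor SLC38A2 was higher in SUDHL6 and Farage.

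SLC7A1, or CAT1, carries arginine and lysine and needs no heavy chain. SLC7A1 was in SUDHL6 at 48.9, 37.2 and 44.2 FPKM under the inhibitor, against 20.8, 24.5 and 25.8 FPKM in DMSO. SUDHL4 libraries held 62.8, 62.3 and 63.0 FPKM under the inhibitor, against 24.7, 27.2 and 28.9 FPKM in DMSO. Farage libraries held 61.9, 60.8 and 57.3 FPKM under the inhibitor, against 21.1, 19.0 and 20.5 FPKM in DMSO. The groups did not overlap, and the SUDHL4 inhibitor replicates lay within 1 FPKM of each other. SLC7A1 rose by 0.84, 1.19 and 1.53 on the log2 scale (SE 0.09 each, limma adjusted p = 2.54e-06, 6.75e-08 and 6.44e-09). SLC7A1 and SLC7A6 both carry arginine, and they moved in opposite directions in each line.

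The SLC7A1 window, chr13:29595639-29595938 on the minus strand, is shown because it holds both of the stress element cores, as the SLC3A2 window does.
SLC7A1: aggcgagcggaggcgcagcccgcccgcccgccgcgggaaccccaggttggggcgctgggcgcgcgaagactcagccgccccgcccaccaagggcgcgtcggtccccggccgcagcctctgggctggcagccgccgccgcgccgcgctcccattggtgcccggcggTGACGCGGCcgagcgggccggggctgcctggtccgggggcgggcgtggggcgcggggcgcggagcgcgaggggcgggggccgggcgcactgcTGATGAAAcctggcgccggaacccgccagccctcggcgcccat
The first capitals, TGACGCGGC, lie at bases -85 to -77 from the start, and the second, TGATGAAA, at bases 8 to 15. Over the members, 9 of 10 matched RefSeq promoters, with 16 windows. SLC7A11, the member with the largest increase, had no window, and the window of SLC38A2, which also rose several-fold, held no match. TGATGNAA stood in windows of 5 members, TGACNNNGC in those of 5 and CACGTG in those of 3. Of all 35116 promoter windows of the same length, 3.62% held TGATGNAA, 13.3% TGACNNNGC and 7.26% CACGTG. Since members have up to 3 windows, these shares per window cannot be set directly against counts per gene, and no match says only that these letters are not in the window.

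SLC43A1, or LAT3, is a carrier of large neutral amino acids that works without a heavy chain, and its reads could not be separated from those of TIMM10, a mitochondrial import protein. The merged locus averaged 60.3 ± 4.13 FPKM under the inhibitor and 85.9 ± 8.76 FPKM in DMSO in SUDHL6. It averaged 45.6 ± 3.35 FPKM and 69.7 ± 4.21 FPKM in SUDHL4, and 38.3 ± 1.98 FPKM and 55.95 ± 2.77 FPKM in Farage (SD, n = 3 each). The locus was lower under the inhibitor in each line with no overlap, with a mean log2 fold change over the lines of -0.55 (limma adjusted p = 5.07e-08). Which of the 2 genes this reflects was not tested.

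Averaged over the 3 lines, the log2 fold changes ran in the order SLC7A11 (3.78, SE 0.25), SLC3A2 (2.48, SE 0.09), SLC38A2 (2.23, SE 0.11), SLC7A5 (1.797, SE 0.06), SLC38A1 (1.22, SE 0.07), SLC7A1 (1.19, SE 0.05), SLC1A5 (1.17, SE 0.07), SLC1A4 (0.01, SE 0.12) and SLC7A6 (-0.50, SE 0.03). SLC38A1, SLC7A1 and SLC1A5 differed by less than their SE. By this average 7 members were higher and 1 lower, beside 35.7 and 44.9% of all tested genes, and SLC1A4 did not pass the test (limma adjusted p = 0.927). Among 12201 genes ranked from the largest increase, SLC7A11 was 12th, SLC3A2 68th, SLC38A2 95th and SLC7A5 198th.

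Without both SUDHL6 replicate 3 libraries, all 9 SUDHL6 calls stayed, in the same direction. The SUDHL6 log2 fold changes were then 3.87 for SLC7A11, 2.38 for SLC3A2, 2.30 for SLC38A2, 1.08 for SLC38A1 and 0.94 for SLC7A5. They were 0.89 for SLC7A1, 0.83 for SLC1A5, -0.31 for SLC7A6 and -0.64 for SLC1A4. Within groups, SUDHL4 DMSO replicate 3 held the highest value of its group for 8 of the 9 transporters, and SUDHL6 DMSO replicate 1 the lowest for 6.

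The response of 5 of the 9 transporters differed between lines in limma's moderated F test, where 52.5% of all tested genes differed, so the share of members is near that of all genes. Between pairs of lines, 2 members responded more and 0 less in SUDHL4 than in SUDHL6, beside 14.1 and 17.8% of all tested genes at an adjusted p under 0.05 in limma. Farage exceeded SUDHL6 for 3 members and was under it for 1, beside 14.6 and 20.2%, and exceeded SUDHL4 for 2 and was under it for 1, beside 17.4 and 18.9%. SLC7A5 had the smallest adjusted p (7.24e-07). Its log2 response was higher by 1.83 in Farage than in SUDHL6 (95% interval 1.53 to 2.14), by 1.10 in Farage than in SUDHL4 (0.80 to 1.41) and by 0.73 in SUDHL4 than in SUDHL6 (0.42 to 1.04), each with an adjusted p of at most 0.0016. SLC3A2, its partner, responded more in Farage than in SUDHL6 (0.75, limma adjusted p = 0.0163) and than in SUDHL4 (0.80, adjusted p = 0.0113). Between SUDHL4 and SUDHL6 the SLC3A2 difference was -0.04 (95% interval -0.52 to 0.43, limma adjusted p = 0.913).

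SLC7A1 responded more in Farage than in SUDHL6 by 0.68 (limma adjusted p = 0.00131). SLC7A6 fell further in Farage, with a response difference of -0.36 from SUDHL6 (limma adjusted p = 0.0024) and -0.23 from SUDHL4 (adjusted p = 0.0308). With scaling to the sum without small RNA loci the F test of SLC7A6 no longer passed (limma adjusted p = 0.092). SLC1A4 differed between SUDHL4 and SUDHL6 by 1.10 (limma adjusted p = 0.00988). For SLC7A11, SLC1A5, SLC38A1 and SLC38A2 the test found no difference between lines at this spread. The 95% interval of the SLC7A11 response in Farage minus SUDHL4 was -2.00 to 0.62, a wide range. That interval was -0.32 to 0.42 for SLC1A5, -0.31 to 0.43 for SLC38A1 and -1.11 to 0.04 for SLC38A2. Without SUDHL4 DMSO replicate 3 the F test passed for SLC7A11 (limma adjusted p = 0.00539), SLC38A2 (adjusted p = 0.00625) and SLC38A1 (adjusted p = 0.048). It also passed for SLC38A1 without SUDHL6 inhibitor replicate 1 (limma adjusted p = 0.00227), and for SLC1A5 without SUDHL6 inhibitor replicate 3 (adjusted p = 0.00736) or SUDHL6 DMSO replicate 1 (adjusted p = 0.0263).

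**Figure D3:**
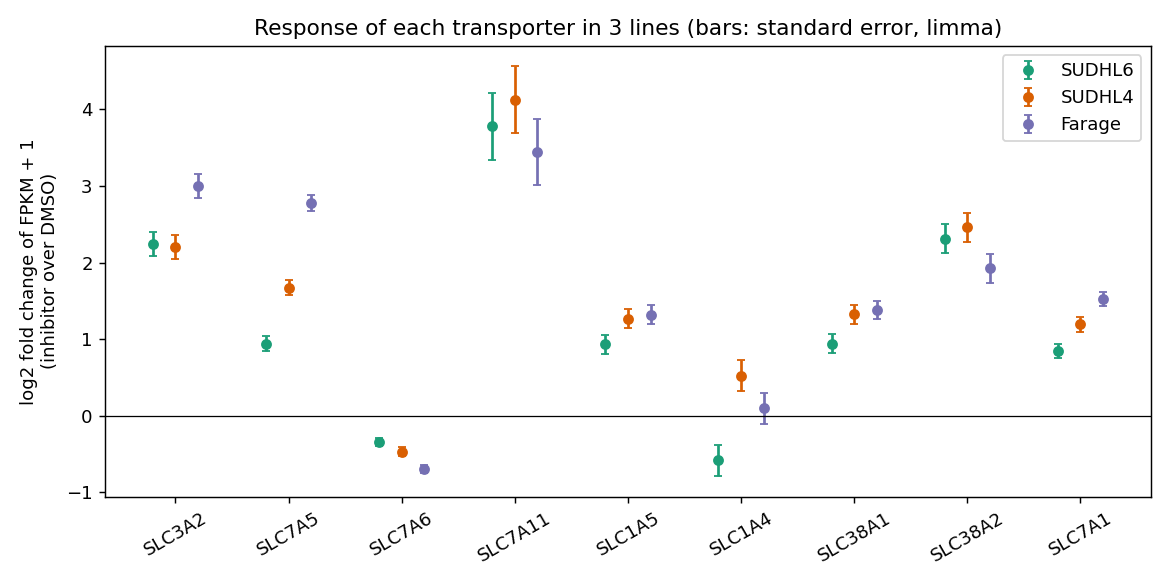
Log2 fold change of FPKM + 1, inhibitor over DMSO, for each of the 9 transporters in SUDHL6 (green), SUDHL4 (orange) and Farage (purple), with limma's standard error as bars. SLC7A5 runs from 0.94 in SUDHL6 to 2.78 in Farage, SLC7A6 lies below 0 in each line, and SLC1A4 lies on both sides of 0.

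In DMSO the lines already differed in some of their transporters. Counted in either direction on values as deposited, the share of members that differed was near that of all tested genes. Between SUDHL4 and SUDHL6, 1 member was higher and 4 lower in SUDHL4, beside 30.4 and 33.5% of all tested genes. Farage had 3 higher and 2 lower than SUDHL6, beside 33.1 and 33.7%, and 3 higher and 3 lower than SUDHL4, beside 33.1 and 30.7%. With libraries scaled to the same sum without small RNA loci, that last count was 5 higher and 0 lower, beside 55.6 and 15.3% of all tested genes, whose median difference moved to 0.43 from 0.03. SLC1A4 showed the largest such difference, at 2.04 on the log2 scale in Farage against SUDHL4 (limma adjusted p = 5.28e-07) and -1.68 in SUDHL4 against SUDHL6 (adjusted p = 4.94e-06). SLC38A2 was higher in Farage, at 45.8 ± 1.48 FPKM, than in SUDHL6, at 15.6 ± 1.61 FPKM (SD, n = 3 each, limma adjusted p = 5.65e-06), and than in SUDHL4 by a log2 difference of 1.25 (adjusted p = 3.7e-05).

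SLC7A5 was lower in Farage than in SUDHL6, at -1.05 (limma adjusted p = 3.48e-07) and lower in SUDHL4 than in SUDHL6, at -0.61 (adjusted p = 9.97e-05). SLC7A11 was higher in Farage than in SUDHL6 by 1.52 (limma adjusted p = 0.00622). These contrasts share their DMSO libraries with the responses above. Of the 6 groups, SLC7A5 was ordered Farage, SUDHL4 and SUDHL6 under the inhibitor, the last 2 overlapping, then SUDHL6, SUDHL4 and Farage in DMSO, with no overlap among the DMSO groups. With scaling to the sum without small RNA loci, SLC7A5 in DMSO was no longer lower in Farage than in SUDHL4, at 0.0502. SLC7A6 ran from SUDHL6 and SUDHL4 in DMSO, which overlapped, to Farage under the inhibitor, which was lowest. For SLC1A4 both Farage groups had the highest means and both SUDHL4 groups the lowest, and Farage DMSO overlapped SUDHL6 DMSO.

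Lists of related genes were described by counts on the average of the lines, where 35.7% of all tested genes were called higher and 44.9% lower. Of 34 other plasma membrane amino acid transporters, 10 passed the filter, and on the average of the lines 3 rose and 6 fell, with a median of -0.51, shares near those of all tested genes. SLC6A9, the glycine transporter GlyT1, rose by 1.51 (limma adjusted p = 4.95e-09), with means of 4.79 against 0.663 FPKM in SUDHL6, 4.56 against 0.460 FPKM in SUDHL4 and 2.02 against 0.787 FPKM in Farage, inhibitor against DMSO. In DMSO only SUDHL6 replicate 2 reached 1 FPKM for SLC6A9, at 1.14 FPKM, so this gene passed the filter through its inhibitor libraries. Its place among the genes that rose is thus partly set by the filter. SLC38A5, a relative of SLC38A1 and SLC38A2 that also carries glutamine, had a log2 fold change of -1.16 (adjusted p = 3.35e-08 in limma), with means of 10.3 against 40.3 FPKM, 5.19 against 8.82 FPKM and 6.94 against 14.2 FPKM in the same lines. SLC7A7, or y+LAT1, the light chain nearest in function to SLC7A6, was at -1.08 (limma adjusted p = 9.91e-08) with means of 2.42 against 8.77 FPKM, 7.72 against 10.1 FPKM and 2.75 against 8.39 FPKM. SLC7A7 did not pass the test within SUDHL4 (adjusted p = 0.0888). SLC38A10 was at -0.75.

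Among 8 tested lysosomal amino acid transporters of 9 listed, 7 rose and 1 fell on average, beside 35.7 and 44.9% of all tested genes, with a median of 0.57. CTNS, which exports cystine from the lysosome, was in SUDHL6 at 25.5, 19.8 and 15.8 FPKM under the inhibitor, against 8.25, 8.43 and 6.84 FPKM in DMSO. Its means were 9.71 against 3.42 FPKM in SUDHL4 and 12.7 against 5.37 FPKM in Farage, and no inhibitor library overlapped DMSO. CTNS rose by 1.21 on average (limma adjusted p = 2.4e-09). SLC15A4, which moves histidine and small peptides, rose by 1.11, and SLC38A7, a lysosomal glutamine carrier, by 0.70, though not past the threshold in SUDHL4 (limma adjusted p = 0.105). SLC15A3, a relative of SLC15A4, was at -1.09, and it too missed the threshold in SUDHL4 (adjusted p = 0.0636). Within SUDHL4 4 of the 8 rose and 0 fell by limma at an adjusted p under 0.05, beside 29.6 and 37.1% of all tested genes.

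Of 8 tested transcription factors known to act on transporter genes, 6 rose and 2 fell, beside 35.7 and 44.9% of all tested genes, with a median of 1.40. ATF3 rose by 4.05, DDIT3, which encodes CHOP, by 3.58 and CEBPB by 2.33. Within SUDHL4 DMSO, replicate 3 was the highest for all of these. ATF3 was at 3.28 FPKM there, against 0.281 and 0.268 FPKM in replicates 1 and 2. DDIT3 was at 76.6 FPKM against 19.1 and 17.9 FPKM, and CEBPB at 5.02 FPKM against 2.61 and 2.09 FPKM. MYC was at -1.64, with means of 52.2 against 128 FPKM in SUDHL6, 11.8 against 146 FPKM in SUDHL4 and 62.7 against 67.9 FPKM in Farage, where it did not pass the test (limma adjusted p = 0.303). ATF4 stood in a locus merged with MIEF1, at 1.30, and BACH1 in one merged with BACH1-IT2, at 2.69, so neither gene could be read alone. The list of amino acid sensing also held kinases and phosphatase subunits of eIF2 alpha, not all of which sense amino acids. The genes of this list split, with 11 of 17 higher and 6 lower, beside 35.7 and 44.9% of all tested genes, and a median of 0.41. Among those that rose were PPP1R15A (3.52), which reverses phosphorylation of eIF2 alpha, EIF2AK3 (2.06), the kinase PERK, the leucine sensor SESN2 (2.19) and C7orf60 (2.28), the S-adenosylmethionine sensor. Within SUDHL4 DMSO, PPP1R15A was at 36.8 FPKM in replicate 3 against 6.91 and 6.82 FPKM in replicates 1 and 2. The 6 that fell, named after their values were seen, were NPRL2 (-1.27), NPRL3 (-0.82), EIF2AK4 (-0.62), EIF2AK2 (-0.56), EIF2AK1 (-0.50) and DEPDC5 (-0.21). NPRL2, NPRL3 and EIF2AK1 were called lower in each line. EIF2AK4, the kinase GCN2 that senses uncharged transfer RNA, did not pass the test in SUDHL6 (limma adjusted p = 0.113). EIF2AK2 passed only in SUDHL6, and DEPDC5 did not pass in SUDHL4.

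SLC7A11 supplies cystine for glutathione. A list of genes of cysteine supply, of glutathione synthesis, use and breakdown, and of thioredoxin reduction had 8 tested. Of these 6 rose and 2 fell, beside 35.7 and 44.9% of all tested genes, with a median of 1.63. CTH, which makes cysteine from cystathionine, rose by 3.09, CHAC1, which breaks glutathione down, by 2.87, TXNRD1, a thioredoxin reductase, by 2.31 and GCLC, the catalytic subunit that starts glutathione synthesis, by 2.02. Within SUDHL4 DMSO, replicate 3 was again the highest for CTH, CHAC1, TXNRD1 and GCLC. CHAC1 was in SUDHL6 at 39.2, 33.4 and 27.5 FPKM under the inhibitor, against 1.73, 3.00 and 1.04 FPKM in DMSO. The 2 that fell, named after their values were seen, were GSS, the synthetase that completes glutathione, and CBS, which makes cystathionine. GSS was at -0.74 on average (limma adjusted p = 5.38e-09) and fell in each line. CBS was at -0.44 on average (adjusted p = 0.00233 in limma) and passed the test in SUDHL4 but not in SUDHL6 or Farage. The list thus did not move one way, with the start of synthesis higher and its last step lower.

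**Figure D4:**
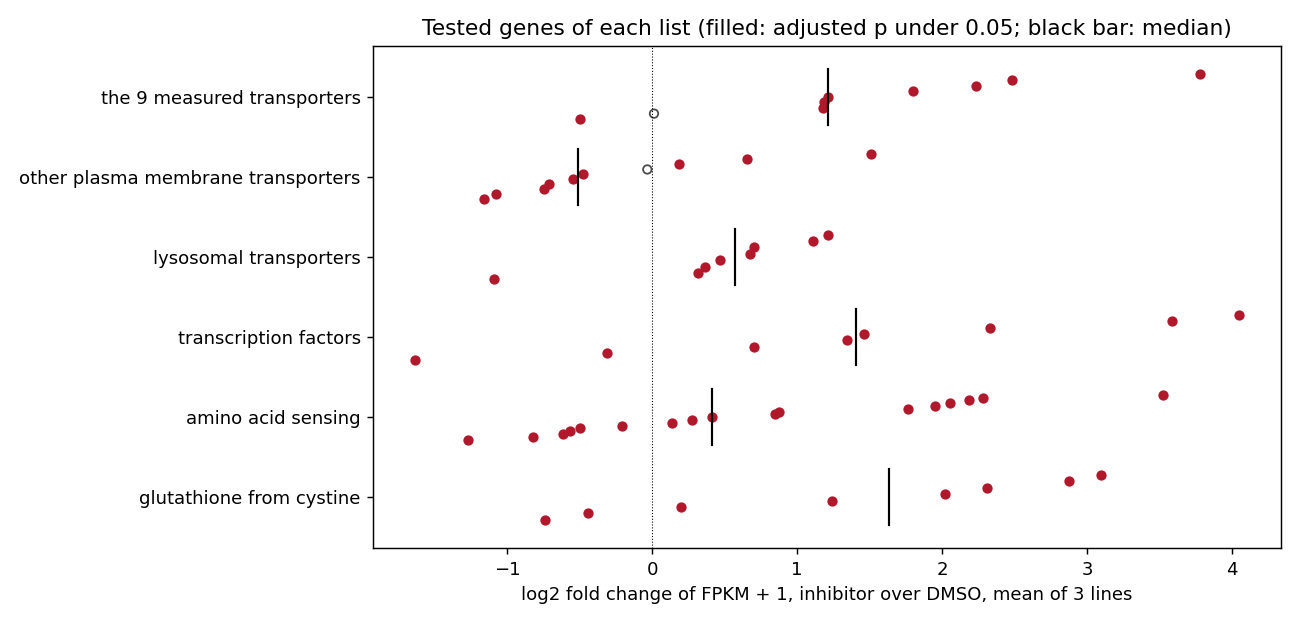
Log2 fold change of FPKM + 1, mean of the 3 lines, for each tested gene of the transporters and of 5 related lists; filled points passed the limma test, open points did not, and black bars are list medians. The 9 transporters have a median of 1.22 and the other plasma membrane transporters one of -0.51.

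The genes whose pattern over the 18 libraries was nearest to that of SLC7A11 were CREBRF, PPP1R15A, SQSTM1, OSGIN1 and SDCBP, with root mean square differences of centred log2(FPKM + 1) of 0.43, 0.45, 0.45, 0.53 and 0.63 among 6628 eligible genes. Those nearest to SLC7A5 were BANP, ATP6V1C1, CPEB4, AHSA1 and C11orf84, at 0.21, 0.32, 0.33, 0.34 and 0.36. BANP had log2 fold changes of 1.28, 1.85 and 2.28 in SUDHL6, SUDHL4 and Farage, the same order of lines as SLC7A5. None of the other 8 members was among the 5 nearest to SLC7A11 or to SLC7A5. Among members, SLC1A5 and SLC7A1 were closest to each other, at 0.27, followed by SLC38A1 and SLC7A1 at 0.28. These distances are a description over libraries that share lines and treatment.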

How the data were processed

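RNA was sequenced in 18 libraries, 3 in each of 6 groups. The deposited values are FPKM per locus, and per the submitters' processing notes CASAVA 1.8, TopHat2, Cufflinks and the build hg19 were used; the labels state neither the annotation nor whether the kit keeps strand, and read counts were not used here. The table held 34410 loci, of which 8406 had no gene name and stayed out of the tests. Values were taken as log2(FPKM + 1), and the 12201 named loci with at least 1 FPKM in at least 3 libraries were fitted with limma 3.58.1 in R 4.3.3, with 1 mean for each group and a trended prior variance. Inhibitor against DMSO was tested in each line, as the mean of lines and, by a moderated F test, for a difference between lines, and p-values were adjusted by Benjamini-Hochberg over all tested loci. The contrasts of each line and of their mean were tried on simulated data, in which a small share of genes changed alike in every line. The F test, the differences of response and the DMSO contrasts were not checked in this way.

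The members and lists were chosen with earlier results of these data known. All members were named, with up to 4 called genes of the largest change from each list (other plasma membrane transporters, lysosomal transporters, transcription factors, amino acid sensing and glutathione), the 5 genes nearest in pattern to SLC7A11 and to SLC7A5, and BCL6. Relative depth was read from whole-read steps at unnamed loci of 56 bp, with a tolerance of 0.02. In SUDHL6 the libraries numbered 3 deviated together, with a correlation of 0.664, against -0.507 to -0.432 with the other numbers. Those numbered 1 and 2 correlated at 0.309 and 0.366 within a number and at 0.271 and 0.320 across numbers, so these do not show a pairing. Libraries of the same number did not deviate together in SUDHL4 (-0.0579 to 0.0636) or Farage (-0.0384 to 0.0767). Alternatives were other pseudocounts, filters, scalings and models, and each library left out. Values of SLC7A11 without SUDHL4 DMSO replicate 3 and the ratios of SLC1A4 within replicate numbers were chosen after seeing the data. Promoter windows came from RefSeq, GRCh38.p14. Python 3.11.15 with numpy 2.4.6, pandas 2.3.3 and matplotlib 3.10.9 was used.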

Additional observations from a re-analysis of the deposited data

Results flagged for a closer look

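The responses of 5 transporters differed between SUDHL6, SUDHL4 and Farage in limma's moderated F test across all tested genes. The adjusted p was 7.24e-07 for SLC7A5, 0.0025 for SLC7A1, 0.00418 for SLC7A6, 0.0113 for SLC3A2 and 0.0155 for SLC1A4. SLC7A6 did not pass with scaling to the sum without small RNA loci (limma adjusted p = 0.092). SLC7A5, SLC3A2 and SLC7A1 had their largest increase and SLC7A6 its largest decrease in Farage, and SLC1A4 was lower under the inhibitor in SUDHL6 and higher in SUDHL4. Of all tested genes 52.5% differed in this way.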

How the results depend on the processing

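All increases and decreases of SLC7A11, SLC7A5, SLC3A2, SLC1A5, SLC38A1, SLC38A2, SLC7A1 and SLC7A6 under the inhibitor kept their direction and their call in every alternative run. The replicate block gave the same counts of members, 7 higher and 2 lower in SUDHL6, 8 and 1 in SUDHL4, 7 and 1 in Farage and 5 that differed between lines, and changed no call. Of 12201 tested genes it called 3888 higher and 4417 lower in SUDHL6, 3905 and 4747 in SUDHL4, and 3776 and 4925 in Farage.

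The count of members lower in SUDHL6, 2 in the analysis as reported, was 1 with array weights and with each line fitted alone, and 1 to 2 with a library left out, because of SLC1A4. Of 12201 tested genes 4109 were lower in SUDHL6 as reported and 3397 with array weights. That number was 2861 with each line fitted alone and 3825 to 4264 with a library left out. SLC1A4 in SUDHL4 also lost its call with a pseudocount of 5 (0.37, limma adjusted p = 0.0678), without a filter (adjusted p = 0.0547) and with scaling to the sum without small RNA loci (adjusted p = 0.175). In DMSO, members higher in SUDHL4 than SUDHL6 numbered 1 to 2 with a library left out, and members lower in Farage than SUDHL6 numbered 4 with array weights and 2 to 4 with a library left out. Over all tested genes the first count was 3705 as reported and 3451 to 3852 with a library left out. The second was 4109 as reported, 4490 with array weights and 3792 to 4326 with a library left out. Members higher in Farage than SUDHL4 numbered 5 with array weights and 5 with scaling to the sum without small RNA loci, where 0 were lower. All tested genes higher numbered 4033 as reported, 5011 with array weights and 6789 with that scaling, where 1864 were lower. Under that scaling the difference turned to 0.0502 for SLC7A5, 0.0806 for SLC7A1 and 0.177 for SLC7A6, none past the threshold. Members that differed between lines numbered 9 with array weights and 5 to 8 with a library left out, the 8 without SUDHL4 DMSO replicate 3. The share of all tested genes in this F test is given only for the analysis as reported, so these counts cannot be set beside one. With scaling to the sum without small RNA loci, SLC7A6 lost the F test call (limma adjusted p = 0.092) and SLC38A1 gained it (adjusted p = 0.0411). Median-ratio scaling added the F test call for SLC1A5 (limma adjusted p = 0.0445). Why these counts and calls changed was not tested. Depth is known only in relative terms.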
